A study of Homo sapiens with 9 samples.

Results

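Transcripts of the vesicle coats, receptors and GTPases that move cargo between the endoplasmic reticulum (ER) and the Golgi were followed in Ramos cells, a B cell line from an EBV-negative Burkitt lymphoma, after exposure to CHIR99021, an inhibitor of the kinase GSK-3. The genes were chosen by symbol from a list of COPII and COPI coat subunits, cargo receptors, KDEL receptors and early secretory GTPases. Of 41 listed genes, 40 were matched to 1 identifier each among the 60234 in the count table, and 39 of these had enough reads to be tested. SEC22B, a fusion protein of this pathway, was not matched and is not analysed here. KDELR3 was matched but held only 2 to 6 reads per library, so it was not tested.

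The series measured RNA in untreated cells (0 h) and in cells kept in 3 µM CHIR99021 for 3 h or 6 h, with 3 biological replicates at each time. All 9 libraries came from the same line with no genetic change named, and they are numbered here as in the labels (replicates 1 to 3 at 0 h, 5 to 7 at 3 h and 9 to 11 at 6 h). None of the 9 was an untreated culture of 3 h or 6 h, so an effect of the inhibitor cannot be told apart from an effect of time in culture. In bulk RNA of this kind, a change in the number of cells in some state and a change in RNA per cell also cannot be told apart.

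COPII vesicles carry newly made proteins out of the ER. The GTPase SAR1 recruits an inner coat of SEC23 and SEC24, in which SEC24 binds the cargo, and an outer cage of SEC13 and SEC31, at exit sites that SEC16A organises. COPI vesicles, formed by ARF GTPases, the exchange factor GBF1 and the coatomer complex, carry receptors and escaped ER residents back from the Golgi. Cells that secrete heavily, such as plasma cells made from activated B cells, are known to enlarge this machinery, partly through the unfolded protein response factor XBP1.

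Each library held 46359911 to 52880876 reads in genes, and 15847 genes were tested. Untreated replicate 3 stood apart from untreated replicates 1 and 2, with a chi-square per degree of freedom of 32.6 and 29.2, against 1.75 between replicates 1 and 2 and 2.74 to 14 within the treated groups. Calls on the listed vesicle transport genes that rest on it are given with and without it. The summed level of 7 B cell markers was 6900 to 7390 CPM (normalised read counts scaled to library size) at 0 h, 7240 to 7890 at 3 h and 7450 to 8400 at 6 h, most of it from IGHM. The markers did not move alike: MS4A1 averaged 520 CPM at 6 h and 268 CPM at 0 h, while PAX5 averaged 255 CPM at 6 h and 409 CPM at 0 h, and CD22 averaged 476 CPM at 6 h and 763 CPM at 0 h. The part of these shifts in the results was not tested. The summed markers of T and NK cells reached at most 0.179 CPM, with CD3D and CD2 at 0, those of myeloid cells at most 0.208 and those of epithelial cells and fibroblasts at most 0.0358, with EPCAM, KRT18 and COL1A2 at 0.

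Vesicle transport transcripts took a larger part of the RNA after treatment. The 40 matched genes together held 0.528%, 0.531% and 0.528% of the reads in genes in the untreated libraries. They held 0.729%, 0.729% and 0.727% at 3 h, and 0.819%, 0.806% and 0.821% at 6 h. The 3 times did not overlap in this share, which uses no scaling factor and leans on the most abundant genes.

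At 6 h, 36 of the 39 tested genes were higher than at 0 h and 1, the coatomer subunit COPG2, was lower (edgeR quasi-likelihood test, adjusted p under 0.05 over all genes). The background is large in this experiment, since 70.8% of all tested genes passed at 6 h, 35.7% higher and 35% lower. The median log2 fold change of the 39 genes was 0.80 (1.74-fold), with quartiles of 0.52 and 1.08, while that of all tested genes was 0.02. The groups at 6 h and 0 h did not overlap in 37 of the 39 genes, against 71.7% of all tested genes. At least 2-fold higher were 13 of the 39, against 6.44% of all tested genes, and none was 2-fold lower, against 13% of all tested genes. ARF5 and KDELR1 did not pass at 6 h.

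At 3 h, 34 of the 39 were higher than at 0 h and 2, COPG2 and the KDEL receptor KDELR1, were lower, where 66.3% of all tested genes passed, 32.8% higher and 33.5% lower. The median was 0.59 (1.51-fold), against -0.01 for all tested genes, and 6 genes were at least 2-fold higher, against 4.95% of all, and none 2-fold lower, against 10.6% of all. SEC24B, COPA and ARF5 did not pass at 3 h. The 3 h and 6 h comparisons share the same untreated libraries and so are not independent of each other.

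These splits use TMM scaling factors, which hold the median of all genes near 0. With library size alone the median of all genes was -0.22 at 6 h and -0.22 at 3 h, and the called genes divided into 3656 higher and 7504 lower at 6 h and 3468 higher and 7451 lower at 3 h, against 5660 and 5553 at 6 h and 5201 and 5304 at 3 h with TMM. With upper-quartile factors the medians were -0.13 and -0.17, and the divisions 4352 and 6736 at 6 h and 3852 and 6854 at 3 h. The vesicle genes still divided into 32 higher and 3 lower at 6 h and 31 and 4 at 3 h with library size alone, and into 32 and 1 at 6 h and 31 and 2 at 3 h with upper-quartile factors. Directions below are relative to the TMM median unless another scaling is named.

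**Figure D1:**
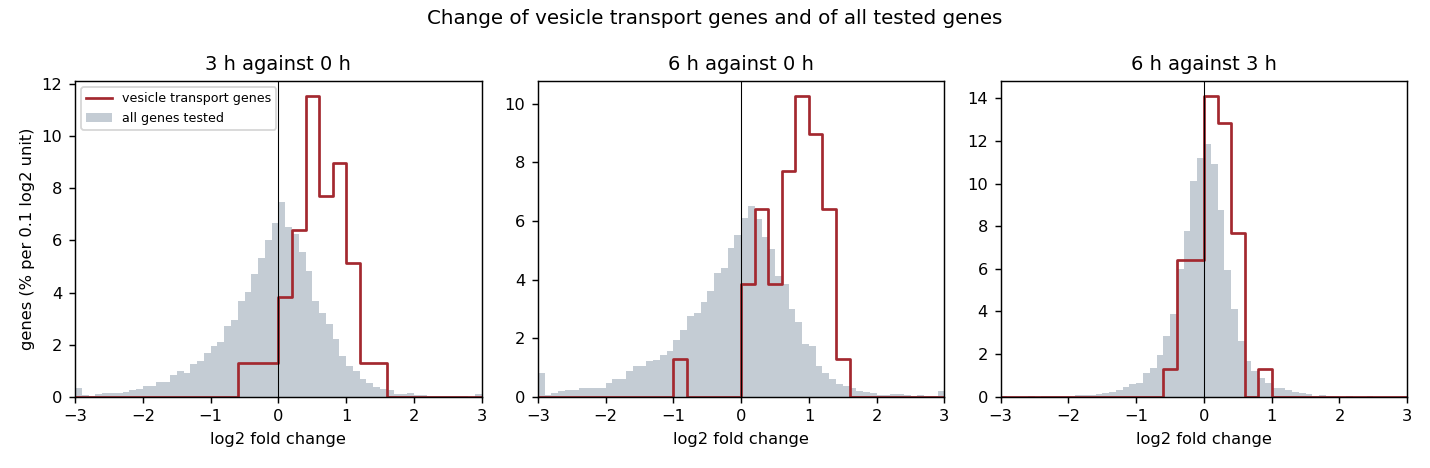
Distribution of log2 fold changes (horizontal axis) as the percentage of genes per 0.1 of log2 fold change (vertical axis), for the 39 tested vesicle transport genes (line, counted in steps of 0.2) and all 15847 tested genes (bars, with values beyond 3 in either direction in the end bins), at 3 h against 0 h, 6 h against 0 h and 6 h against 3 h. Against 0 h the vesicle genes lie mostly to the right, with a median of 0.59 at 3 h and 0.80 at 6 h, where all genes have medians of -0.01 and 0.02, and between 3 h and 6 h they centre on 0.18, with genes on both sides of 0.

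Between 3 h and 6 h the genes parted. Of the 39, 22 were higher at 6 h than at 3 h, 7 were lower and 10 did not pass, where 43.4% of all tested genes passed, 21.5% higher and 21.9% lower. The largest time class, with 19 genes, was higher at 3 h and higher again at 6 h, a pattern held by 8.71% of all tested genes. It comprised SEC23B, SEC24C, SEC13, 5 coatomer subunits (COPB1, COPB2, COPE, COPG1 and COPZ1), ARF1, KDELR2, the p24 proteins TMED2, TMED3, TMED9 and TMED10, all 4 other cargo receptors and USO1. A further 9 were higher at both times with no difference passing between them (13.6% of all genes), and 6 were higher at both but lower at 6 h than at 3 h (5.05%). SEC24B and COPA passed against 0 h only at 6 h (4.59% of all genes have that pattern). For neither did this pattern hold in every fit, as given below. Across the 3 times, 38 of the 39 genes differed in the edgeR F test, against 77.7% of all tested genes, and ARF5 was the exception.

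**Figure D2:**
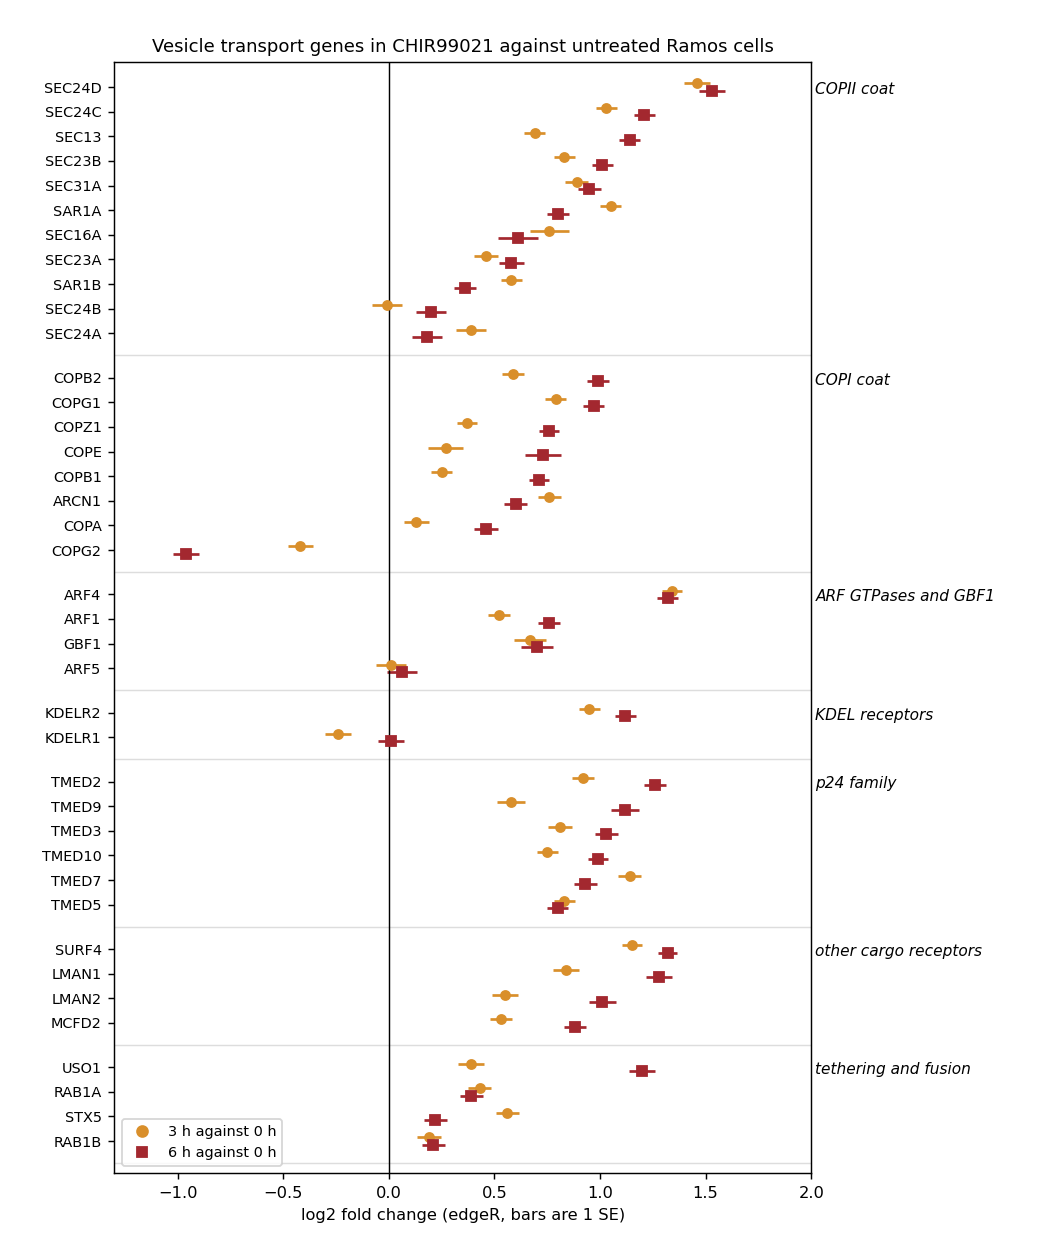
Log2 fold change against 0 h (horizontal axis, edgeR estimate with bars of 1 standard error) for each of the 39 tested genes, grouped by role down the page, at 3 h and 6 h in 3 µM CHIR99021. COPG2 is the gene furthest to the left at 6 h (-0.96) and SEC24D the furthest to the right (1.53), and the p24 proteins and other cargo receptors lie between 0.80 and 1.32 at 6 h.

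Short stretches of promoter are shown because so many of these genes rose together, and because motifs of the ER stress response are known in this region of secretory genes. They come from RefSeq (build GRCh38.p14) and run from 250 bases before to 50 bases after the transcription start. Of the 40 matched genes, 34 had an entry. SURF4, TMED2 and LMAN1 had the largest rises at 6 h among genes with an entry, and SEC24C, added after its values were seen, had the largest rise among those holding the TGACGT core. Capitals mark TGACGT, a core shared by the UPRE that binds ATF6 and XBP1 and by cyclic AMP response elements, and ACGTGG, each on either strand.
SURF4, chr9:133376011-133376310, minus strand: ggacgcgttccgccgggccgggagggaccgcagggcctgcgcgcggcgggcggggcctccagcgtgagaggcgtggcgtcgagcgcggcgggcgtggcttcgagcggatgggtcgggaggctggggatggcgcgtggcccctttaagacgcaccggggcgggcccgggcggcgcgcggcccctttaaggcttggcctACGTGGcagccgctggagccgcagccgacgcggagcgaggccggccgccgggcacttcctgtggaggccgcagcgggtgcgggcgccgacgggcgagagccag
TMED2, chr12:123584302-123584601, plus strand: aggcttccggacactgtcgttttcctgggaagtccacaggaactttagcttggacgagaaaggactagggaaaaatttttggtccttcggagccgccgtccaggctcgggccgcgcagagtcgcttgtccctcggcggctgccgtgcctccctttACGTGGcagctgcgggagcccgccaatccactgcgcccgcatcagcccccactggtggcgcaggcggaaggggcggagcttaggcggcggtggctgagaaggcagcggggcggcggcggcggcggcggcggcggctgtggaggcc
LMAN1, chr18:59359216-59359515, minus strand: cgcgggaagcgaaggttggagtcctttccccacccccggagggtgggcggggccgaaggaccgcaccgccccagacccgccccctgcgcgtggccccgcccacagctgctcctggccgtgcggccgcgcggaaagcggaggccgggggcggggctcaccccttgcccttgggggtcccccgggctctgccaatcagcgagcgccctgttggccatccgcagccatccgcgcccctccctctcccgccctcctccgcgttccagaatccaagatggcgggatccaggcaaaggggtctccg
SEC24C, chr10:73744122-73744421, plus strand: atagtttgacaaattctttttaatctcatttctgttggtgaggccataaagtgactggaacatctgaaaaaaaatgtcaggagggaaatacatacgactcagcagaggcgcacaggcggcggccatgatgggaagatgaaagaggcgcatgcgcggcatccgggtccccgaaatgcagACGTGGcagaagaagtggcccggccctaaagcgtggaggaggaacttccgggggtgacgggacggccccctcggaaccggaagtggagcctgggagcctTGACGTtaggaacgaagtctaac

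TGACGT lay in the promoters of 16 of the 34 genes (47.1%), against 7.97% of all 34796 promoters and 14.4% of the 10233 tested genes with an entry. Some genes have several entries, and over entries the count was 18 of 47 (38.3%). The 16 were ARF1, ARF5, COPA, COPB1, COPB2, COPE, GBF1, KDELR3, SAR1A, SEC13, SEC16A, SEC23A, SEC23B, SEC24A, SEC24C and STX5. The 15 tested holders had a median log2 fold change of 0.71 at 6 h and the 18 without it 0.91, a difference that was not tested. ACGTGG, a letter run chosen after the promoters had been read and able to overlap both TGACGT and the E-box CACGTG, lay in 23 of the 34 (67.6%), against 9.7% of all promoters and 15.9% of the tested genes with an entry. The median at 6 h was 0.84 for the 22 tested holders and 0.36 for the 11 without it. Because ACGTGG was picked from these same promoters, with the fold changes known, its share and these medians are description only. No conclusion is drawn from them. CACGTG lay in 4 of the 34 (11.8%), against 7.2% of promoters and 12.6% of the tested genes with an entry, and the full ER stress element ERSE, written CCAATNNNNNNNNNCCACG, in 0, against 0.0776% and 0.147%. LMAN1 held none of these runs in the window shown. Whether any of the runs bears on the rise of a gene was not tested. A run of letters in a promoter does not show that a factor binds there, and no binding was measured.

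All 11 COPII coat genes passed as higher at 6 h than at 0 h, with a median log2 fold change of 0.80, and 10 passed at 3 h. Of all tested genes, 35.7% were higher at 6 h and 32.8% at 3 h. The 6 h calls of SEC24A and SEC24B did not hold in every fit, as given below. The cargo-binding SEC24 paralogues differed most among themselves. SEC24D (ENSG00000150961) had 90.2, 88.8 and 76.4 CPM at 0 h, 234, 243 and 227 CPM at 3 h, and 245, 245 and 249 CPM at 6 h. All 6 treated libraries were far above the untreated ones, of which replicate 3 was the lowest. On the log2 scale it was 1.53 above 0 h at 6 h (SE 0.0616, 2.9-fold, edgeR adjusted p = 7.8e-11), the largest of the 39, and nearly all of it was present at 3 h (1.46, SE 0.0615). SEC24C (ENSG00000176986), its closest relative, had 188, 187 and 171 CPM at 0 h, 376, 371 and 368 CPM at 3 h, and 431, 409 and 419 CPM at 6 h. The 3 times did not overlap, and SEC24C was 1.21 above 0 h at 6 h (SE 0.0494, edgeR adjusted p = 9.24e-11).

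SEC24A and SEC24B, the other pair of SEC24 paralogues, moved little. SEC24A (ENSG00000113615) had 40.2, 40.2 and 33.3 CPM at 0 h, 50.4, 51.5 and 47.4 CPM at 3 h, and 41.5, 44.7 and 42.4 CPM at 6 h. It was highest at 3 h, 0.39 above 0 h on the log2 scale (SE 0.0704, edgeR adjusted p = 2.18e-04), while its 6 h libraries lay just above the untreated ones. The 6 h difference of 0.18 (SE 0.0708, adjusted p = 0.0385) was lost without untreated replicate 3 (0.121), without 3 h replicate 5 or 6 (0.064 and 0.0533) and without any 6 h replicate (0.051 to 0.159), and was -0.06 with library size alone. SEC24B (ENSG00000138802) had 31, 30.2 and 25.1 CPM at 0 h, 30, 27.9 and 28.1 CPM at 3 h, and 33.1, 32.7 and 33.1 CPM at 6 h. Only its 6 h libraries stood above the rest, by 0.20 over 0 h (SE 0.0713, adjusted p = 0.0248), a call lost without untreated replicate 3 (0.0691) or any 6 h library (0.0617 to 0.0731) and of opposite sign (-0.04) with library size alone. At 6 h over 3 h SEC24A had -0.22 (adjusted p = 0.0241), which was lost without 3 h replicate 5 or 6 or 6 h replicate 9 or 11 (0.0756 to 0.0911). In the same interval SEC24B had 0.20 (adjusted p = 0.0347), which was lost without 3 h replicate 6 or 7 or any 6 h replicate (0.0775 to 0.104).

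On a per-length scale, TPM (read counts divided by exon length and scaled to a fixed total per library), the order of the SEC24 paralogues was SEC24C, SEC24D and then SEC24B and SEC24A. SEC24C averaged 232 ± 3.84 TPM at 6 h and 117 ± 9.31 TPM at 0 h, and SEC24D 73.5 ± 2.87 TPM at 6 h and 29.6 ± 3.42 TPM at 0 h (SD, n = 3). SEC24B averaged 18.7 ± 0.629 TPM at 6 h and 19 ± 2.6 TPM at 0 h, and SEC24A 17.6 ± 1.39 TPM at 6 h and 18.2 ± 2.38 TPM at 0 h, so SEC24B and SEC24A did not differ beyond their spread at either time. TPM carries no TMM factor, which averaged 1.11 in the untreated libraries, 0.962 in those of 3 h and 0.94 in those of 6 h.

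SEC23, the partner that activates the GTPase of SAR1, showed a shift between its paralogues. SEC23B (ENSG00000101310), mutated in a congenital dyserythropoietic anaemia, had 67.8, 67.3 and 65.4 CPM at 0 h, 116, 122 and 119 CPM at 3 h, and 136, 127 and 140 CPM at 6 h. SEC23A (ENSG00000100934) had 81.5, 81.3 and 71.7 CPM at 0 h, 105, 111 and 106 CPM at 3 h, and 115, 112 and 122 CPM at 6 h. Neither had an overlap among the 3 times, and in CPM SEC23B was below SEC23A in every untreated library and above it in every treated one. That order is not corrected for length. Per length SEC23B was already the higher at 0 h, with means of 52.4 TPM at 0 h, 83.3 TPM at 3 h and 90.8 TPM at 6 h. SEC23A averaged 30.1 TPM at 0 h, 36.8 TPM at 3 h and 38.6 TPM at 6 h. The log2 fold changes at 6 h were 1.01 for SEC23B (SE 0.0503, edgeR adjusted p = 5.41e-10) and 0.58 for SEC23A (SE 0.0589, adjusted p = 7.89e-07). Between 6 h and 3 h SEC23A differed by 0.12 (adjusted p = 0.118), which passed without untreated replicate 3 (0.0262).

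SAR1A and SAR1B, the GTPases that start the COPII coat, peaked at 3 h. SAR1A (ENSG00000079332) had 88.7, 89.2 and 87.9 CPM at 0 h, 178, 188 and 185 CPM at 3 h, and 156, 144 and 161 CPM at 6 h. SAR1B (ENSG00000152700), which is mutated in chylomicron retention disease, had 44.3, 43.8 and 40.6 CPM at 0 h, 63.7, 65.1 and 63.6 CPM at 3 h, and 55, 57.2 and 53.4 CPM at 6 h. In both genes the 6 h libraries lay between those of 0 h and 3 h without overlap. SAR1A was 1.05 above 0 h at 3 h (SE 0.0508, edgeR adjusted p = 5.77e-10) and 0.80 at 6 h (SE 0.0507), and it fell by 0.26 from 3 h to 6 h on the log2 scale (adjusted p = 9.31e-04). SAR1B was 0.58 above 0 h at 3 h and 0.36 at 6 h. SAR1B and SEC24A are neighbours on opposite strands whose exons share 385 bases, and the strand setting of the counts is not given in the sources used here.

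The outer coat and the exit site scaffold also rose. SEC13, which also belongs to the nuclear pore, averaged 206 ± 8.48 CPM at 6 h and 93.4 ± 4.63 CPM at 0 h, a log2 fold change of 1.14 (edgeR adjusted p = 2.14e-10). Its cage partner SEC31A averaged 248 ± 5.73 CPM at 6 h and 128 ± 8.64 CPM at 0 h (0.95), and it differed little between 6 h and 3 h (0.06, adjusted p = 0.398). SEC16A averaged 209 ± 12.9 CPM at 6 h and 137 ± 21 CPM at 0 h (0.61, adjusted p = 1.02e-04). Among its untreated libraries replicate 3 was low, at 113 CPM against 150 and 148 CPM in replicates 1 and 2, and without that replicate SEC16A passed as lower at 6 h than at 3 h (adjusted p = 0.0108).

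Coatomer, the COPI coat, has 8 genes here, of which 7 were higher at 6 h than at 0 h and 1 was lower. Of all tested genes, 35.7% were higher at 6 h and 35% lower. The median log2 fold change of the coatomer genes was 0.72 at 6 h and 0.32 at 3 h, beside 0.80 and 0.76 for the COPII coat genes. Whether the coats differ in timing was not tested. COPB2 (ENSG00000184432), the beta prime subunit that reads retrieval signals, had 119, 121 and 110 CPM at 0 h, 172, 181 and 176 CPM at 3 h, and 232, 222 and 240 CPM at 6 h. COPA (ENSG00000122218), the alpha subunit, had 205, 210 and 179 CPM at 0 h, 221, 218 and 210 CPM at 3 h, and 275, 266 and 278 CPM at 6 h. COPB2 climbed without overlap at each time (0.99 at 6 h, SE 0.0523, edgeR adjusted p = 9.86e-10), whereas the 3 h libraries of COPA touched its untreated ones. COPA was 0.46 above 0 h at 6 h (SE 0.0586, adjusted p = 7.49e-06). At 3 h its value was 0.13 (SE 0.0586, adjusted p = 0.0723), or -0.08 with library size alone, and leaving out untreated replicate 2 made it pass (0.0329).

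COPB1, COPE and COPZ1, further subunits of the coat, were higher at both times. At 6 h the log2 fold change over 0 h was 0.71 for COPB1, 0.73 for COPE and 0.76 for COPZ1, with adjusted p-values of 1.28e-08, 4.57e-06 and 5.51e-09, and at 3 h it was 0.25, 0.27 and 0.37. At 3 h COPE had 150, 137 and 149 CPM, against 109, 113 and 138 CPM at 0 h, so the groups overlapped through untreated replicate 3. ARCN1 (ENSG00000095139), the delta subunit, had 223, 218 and 195 CPM at 0 h, 356, 369 and 351 CPM at 3 h, and 320, 313 and 332 CPM at 6 h. It was highest at 3 h, 0.76 above 0 h (SE 0.0556, edgeR adjusted p = 3.38e-08), and its decrease of -0.16 between 3 h and 6 h (adjusted p = 0.0344) was lost without any 1 of the 3 h replicates and without 6 h replicate 9 or 10 (0.0596 to 0.119).

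The gamma subunits moved in opposite directions. COPG1 (ENSG00000181789) had 160, 160 and 157 CPM at 0 h, 280, 272 and 273 CPM at 3 h, and 325, 292 and 317 CPM at 6 h. COPG2 (ENSG00000158623), the less abundant alternative subunit, had 39, 40.1 and 35.7 CPM at 0 h, 28.3, 29.2 and 28.3 CPM at 3 h, and 19.5, 18.7 and 20.8 CPM at 6 h. The 3 times did not overlap in either gene, and their orders were reversed. At 6 h COPG1 was 0.97 above 0 h on the log2 scale (SE 0.0494, edgeR adjusted p = 6.81e-10), and COPG2 fell by 0.96 (SE 0.0606, adjusted p = 5.54e-09), with a further decrease of -0.54 between 3 h and 6 h (adjusted p = 1.24e-05). Per length, COPG2 averaged 14.1 ± 0.615 TPM at 6 h and 31.9 ± 2.77 TPM at 0 h, and COPG1 208 ± 3.51 TPM at 6 h and 124 ± 4.92 TPM at 0 h (SD, n = 3). COPG2 shares 228 exon bases, 5.51% of its exons, with MEST on the opposite strand, and MEST had a log2 fold change of 0.71 at 6 h, the other direction.

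**Figure D3:**
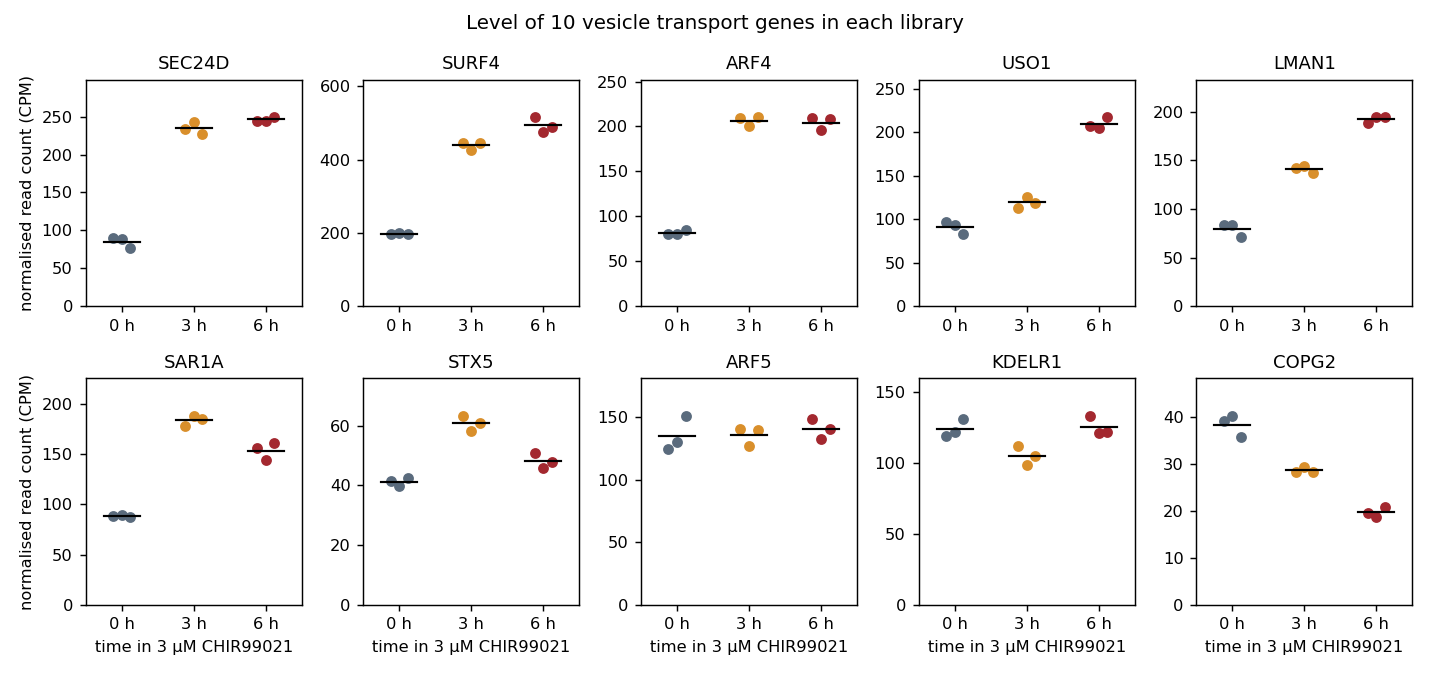
Normalised read counts (CPM, vertical axes starting at 0) of 10 vesicle transport genes in each library at 0 h, 3 h and 6 h in 3 µM CHIR99021; each point is 1 library and each line the mean of 3. SEC24D and ARF4 are near their full level by 3 h, USO1 and LMAN1 go on rising to 6 h, SAR1A and STX5 are highest at 3 h, KDELR1 dips at 3 h, and COPG2 declines at each time.

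Among the ARF GTPases, which bring coatomer to membranes, the paralogues also parted. ARF4 (ENSG00000168374) had 80.4, 80.1 and 84.7 CPM at 0 h, 209, 200 and 210 CPM at 3 h, and 209, 196 and 208 CPM at 6 h. ARF5 (ENSG00000004059) had 125, 130 and 151 CPM at 0 h, 141, 127 and 140 CPM at 3 h, and 149, 133 and 141 CPM at 6 h. All treated libraries of ARF4 were above all untreated ones and alike at 3 h and 6 h, and those of ARF5 overlapped at every time. ARF4 was 1.34 above 0 h at 3 h (SE 0.0487, edgeR adjusted p = 6.28e-11) and 1.32 at 6 h (SE 0.0487, adjusted p = 3.71e-11). ARF5 had 0.01 at 3 h (SE 0.071, adjusted p = 0.934) and 0.06 at 6 h (SE 0.071, adjusted p = 0.5). It passed as higher at 6 h without untreated replicate 3 (0.14, adjusted p = 0.0274). With library size alone it passed as lower at 3 h (-0.20, adjusted p = 0.0249) and at 6 h (-0.18, adjusted p = 0.0342), so its direction rests on the scaling. Of the exon bases of ARF5, 21.9% are shared with GCC1 on the opposite strand, which had a log2 fold change of 0.59 at 3 h and 0.10 at 6 h.

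ARF1 (ENSG00000143761), the main GTPase of the COPI coat and the highest of the 40 genes in CPM, had 486, 488 and 532 CPM at 0 h, 732, 697 and 724 CPM at 3 h, and 889, 811 and 850 CPM at 6 h. It rose at each time without overlap, to 0.76 above 0 h at 6 h (SE 0.0527, edgeR adjusted p = 1.45e-08). GBF1, which loads GTP onto ARFs at the early Golgi, averaged 136 ± 6.99 CPM at 6 h and 83.3 ± 9.76 CPM at 0 h (0.70, SE 0.0761, adjusted p = 1.84e-06). Per length at 0 h the order was ARF1 with 526 ± 12.1 TPM, ARF5 with 249 ± 17.8 TPM and ARF4 with 108 ± 0.293 TPM. At 6 h ARF4 (233 ± 2.11 TPM) and ARF5 (222 ± 4.17 TPM) were close to each other, and ARF1 stood at 766 ± 8.59 TPM.

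KDEL receptors return escaped ER chaperones from the Golgi, and of the 2 that were tested KDELR2 passed as higher than at 0 h at both times and KDELR1 at neither. KDELR2 (ENSG00000136240) had 133, 133 and 139 CPM at 0 h, 263, 259 and 263 CPM at 3 h, and 306, 278 and 299 CPM at 6 h. KDELR1 (ENSG00000105438) had 119, 122 and 131 CPM at 0 h, 112, 98.3 and 105 CPM at 3 h, and 133, 121 and 122 CPM at 6 h. The treated libraries of KDELR2 were all above the untreated ones, while those of KDELR1 were below them at 3 h and overlapped with them at 6 h. KDELR2 was 1.12 above 0 h at 6 h (SE 0.0491, 2.18-fold, edgeR adjusted p = 1.66e-10). KDELR1 had -0.24 at 3 h (SE 0.0606, adjusted p = 0.00336) and 0.01 at 6 h (SE 0.0605, adjusted p = 0.846). With library size alone KDELR1 passed as lower at 6 h (-0.22, adjusted p = 0.00364). After its dip it was higher at 6 h than at 3 h (0.25, SE 0.0607, adjusted p = 0.00432), without overlap. KDELR3 (ENSG00000100196) averaged 0.0605 ± 0.044 CPM at 0 h, 0.0614 ± 0.00281 CPM at 3 h and 0.0737 ± 0.0337 CPM at 6 h. Those levels are near the 0.0567 to 0.0647 CPM that a count of 0 allows, so no fold change is given.

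The p24 family comprises transmembrane proteins that cycle between ER and Golgi and take part in sorting GPI-anchored proteins. The 6 members listed here were higher at both times, with a median of 0.82 at 3 h and 1.01 at 6 h. Of all tested genes, 32.8% were higher at 3 h and 35.7% at 6 h. TMED2 (ENSG00000086598) had 182, 186 and 188 CPM at 0 h, 349, 351 and 351 CPM at 3 h, and 450, 414 and 469 CPM at 6 h. TMED9 (ENSG00000184840) had 166, 171 and 195 CPM at 0 h, 270, 251 and 277 CPM at 3 h, and 409, 367 and 382 CPM at 6 h. Both climbed at each time without overlap, to log2 fold changes at 6 h of 1.26 for TMED2 (SE 0.0512, edgeR adjusted p = 8.63e-11) and 1.12 for TMED9 (SE 0.0661, adjusted p = 2.75e-09). TMED10, an obligate partner in p24 complexes, averaged 390 ± 10.5 CPM at 6 h and 196 ± 9.32 CPM at 0 h (0.99, adjusted p = 5.42e-10). Other TMED genes, held in a wider list of the pathway, did not all move this way. TMED1 was higher at 3 h (0.91, adjusted p = 1.2e-07) and at 6 h (0.57, adjusted p = 1.41e-05), TMED4 was lower at 3 h (-0.16, adjusted p = 0.00629) with 0.03 at 6 h (adjusted p = 0.545), and TMED8 was lower at 3 h (-0.46, adjusted p = 0.00195) and at 6 h (-0.32, adjusted p = 0.0141). For TMED8 the 6 h libraries (138, 152 and 140 CPM) overlapped the untreated ones (197, 196 and 145 CPM) through untreated replicate 3. Its fit without that replicate is not given here.

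TMED5 and TMED7 did not keep rising after 3 h. TMED5 (ENSG00000117500) had 88.1, 84 and 80.1 CPM at 0 h, 146, 153 and 149 CPM at 3 h, and 148, 142 and 149 CPM at 6 h. TMED7 (ENSG00000134970) had 41.8, 41.2 and 40.1 CPM at 0 h, 89.5, 93.2 and 88.8 CPM at 3 h, and 81.2, 72.5 and 80.8 CPM at 6 h. TMED5 overlapped between 3 h and 6 h, and TMED7 was lower in every 6 h library than in every 3 h library. TMED3 (ENSG00000166557), of the same subfamily as TMED7, had 43.5, 45.2 and 46.4 CPM at 0 h, 80.2, 74.4 and 83.2 CPM at 3 h, and 95.6, 89.3 and 90.9 CPM at 6 h. The change between 3 h and 6 h was -0.21 for TMED7 (adjusted p = 0.00583) and 0.21 for TMED3 (adjusted p = 0.00581), so this pair crossed over in read counts. Per length it did not cross. TMED7 averaged 36.3 TPM at 0 h, 71.3 TPM at 3 h and 59.3 TPM at 6 h, and TMED3 7.96, 12.5 and 14 TPM. Exons of TMED7 also belong to the readthrough gene TMED7-TICAM2 over 24% of their length, and that gene held 1.51% as many reads as TMED7.

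The other 4 cargo receptors were higher at 3 h, at 6 h and again at 6 h over 3 h, a pattern held by 8.71% of all tested genes. Their median was 0.69 at 3 h and 1.15 at 6 h. SURF4 (ENSG00000148248), a receptor for soluble secreted proteins, had 198, 199 and 196 CPM at 0 h, 446, 426 and 444 CPM at 3 h, and 515, 476 and 490 CPM at 6 h. LMAN1 (ENSG00000074695), a lectin that carries coagulation factors V and VIII, had 83, 83.1 and 70.7 CPM at 0 h, 142, 144 and 137 CPM at 3 h, and 188, 194 and 194 CPM at 6 h. MCFD2 (ENSG00000180398), its calcium-binding partner, had 152, 152 and 135 CPM at 0 h, 209, 216 and 209 CPM at 3 h, and 267, 267 and 273 CPM at 6 h. In each gene the times followed one another without overlap. At 6 h the log2 fold changes were 1.32 for SURF4 (SE 0.0466, 2.5-fold, edgeR adjusted p = 2.59e-11), 1.28 for LMAN1 (SE 0.0617, adjusted p = 3.94e-10) and 0.88 for MCFD2 (SE 0.0525, adjusted p = 3.2e-09). LMAN2, a related lectin, averaged 246 ± 17.6 CPM at 6 h and 122 ± 8.67 CPM at 0 h (1.01, adjusted p = 5.13e-09).

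All 4 tested tethering and fusion genes were higher at both times, with a median of 0.41 at 3 h and 0.31 at 6 h. Of all tested genes, 32.8% were higher at 3 h and 35.7% at 6 h. USO1 (ENSG00000138768), the tether p115 that captures arriving vesicles at the Golgi, had 96.4, 93.8 and 83.5 CPM at 0 h, 113, 126 and 119 CPM at 3 h, and 207, 205 and 217 CPM at 6 h. The largest step came between 3 h and 6 h, when it rose by 0.81 on the log2 scale (SE 0.0608, edgeR adjusted p = 2.92e-07), the largest value of the 39 genes in that interval. STX5 (ENSG00000162236), the Golgi syntaxin of vesicle fusion, had 41.4, 39.9 and 42.4 CPM at 0 h, 63.2, 58.2 and 60.8 CPM at 3 h, and 50.9, 45.7 and 47.8 CPM at 6 h. It was highest at 3 h (0.56 over 0 h, SE 0.0551, adjusted p = 6.77e-07) and came part of the way back (0.22 over 0 h at 6 h, adjusted p = 0.00238, and -0.01 with library size alone).

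RAB1 proteins are the GTPases that recruit USO1 to COPII vesicles. RAB1A (ENSG00000138069) had 138, 138 and 149 CPM at 0 h, 189, 188 and 196 CPM at 3 h, and 192, 173 and 191 CPM at 6 h. RAB1B (ENSG00000174903) had 120, 122 and 132 CPM at 0 h, 147, 136 and 146 CPM at 3 h, and 152, 138 and 145 CPM at 6 h. Both were above all untreated libraries and overlapped between 3 h and 6 h. At 6 h the log2 fold change was 0.39 for RAB1A (SE 0.0546, edgeR adjusted p = 1.94e-05) and 0.21 for RAB1B (SE 0.0555, adjusted p = 0.00331), and RAB1B had -0.02 with library size alone. RAB1A shares 22.9% of its exon bases with CEP68 on the opposite strand, which had a log2 fold change of -1.03 at 6 h.

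Whether paralogues changed by different amounts was tested directly from the log2 ratio of their raw counts in each library, which needs no scaling factor. An exact permutation test over all divisions of the 9 libraries into 3 times was used for 10 pairs, with p-values adjusted over the 10, and the smallest p it can give is 0.00357. The ratio differed among the times in 9 pairs, and in the same number when any 1 library was left out. How often pairs of unrelated genes would pass this test was not computed. Since 77.7% of all tested genes differed among the times in the edgeR F test, the count is not read as particular to paralogues. KDELR3 to KDELR1 was the pair that did not pass (exact permutation p = 0.596). KDELR3 held only 2 to 6 reads per library, too few for the test to decide whether that ratio changed.

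COPG2 to COPG1 had log2 ratios of -2.04, -2.0 and -2.14 at 0 h, -3.30, -3.22 and -3.27 at 3 h, and -4.06, -3.96 and -3.93 at 6 h (exact permutation p = 0.00357, adjusted 0.00893). The ratio was thus 3.8-fold lower at 6 h than at 0 h, the widest change of the 10 pairs. ARF4 to ARF5 had -0.64, -0.70 and -0.83 at 0 h, 0.56, 0.65 and 0.59 at 3 h, and 0.49, 0.56 and 0.56 at 6 h (exact permutation p = 0.00357, adjusted 0.00893). ARF4 thus held fewer reads than ARF5 in the untreated libraries and more in the treated ones. KDELR2 to KDELR1 had 0.16, 0.12 and 0.09 at 0 h, 1.23, 1.40 and 1.32 at 3 h, and 1.2, 1.2 and 1.29 at 6 h (exact permutation p = 0.00714, adjusted 0.0102).

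The COPII ratios moved less. SEC23B to SEC23A averaged -0.22 ± 0.0787 at 0 h, 0.15 ± 0.0183 at 3 h and 0.21 ± 0.0304 at 6 h (SD, n = 3, exact permutation p = 0.00357, adjusted 0.00893). SEC24D to SEC24C averaged -1.1 ± 0.0563 at 0 h, -0.67 ± 0.0485 at 3 h and -0.77 ± 0.0407 at 6 h (n = 3, exact permutation p = 0.00357, adjusted 0.00893). SAR1B to SAR1A averaged -1.05 ± 0.0608 at 0 h, -1.52 ± 0.0323 at 3 h and -1.48 ± 0.129 at 6 h (n = 3, exact permutation p = 0.0286, adjusted 0.0317). In these 3 pairs the change was complete by 3 h or nearly so. SEC24B to SEC24A was different, with -0.40 ± 0.0212 at 0 h, -0.80 ± 0.0756 at 3 h and -0.38 ± 0.0642 at 6 h (n = 3, exact permutation p = 0.0214, adjusted 0.0268), so only 3 h stood apart.

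TMED7 to TMED3 averaged -0.13 ± 0.0778 at 0 h, 0.19 ± 0.12 at 3 h and -0.24 ± 0.0652 at 6 h (n = 3, exact permutation p = 0.00714, adjusted 0.0102). In reads, which are not corrected for length, TMED7 thus exceeded TMED3 at 3 h alone. RAB1B to RAB1A averaged -0.18 ± 0.0161 at 0 h, -0.42 ± 0.0493 at 3 h and -0.35 ± 0.0429 at 6 h (n = 3, exact permutation p = 0.00714, adjusted 0.0102), the smallest change at 6 h among the pairs whose 6 h and 0 h libraries did not overlap.

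**Figure D4:**
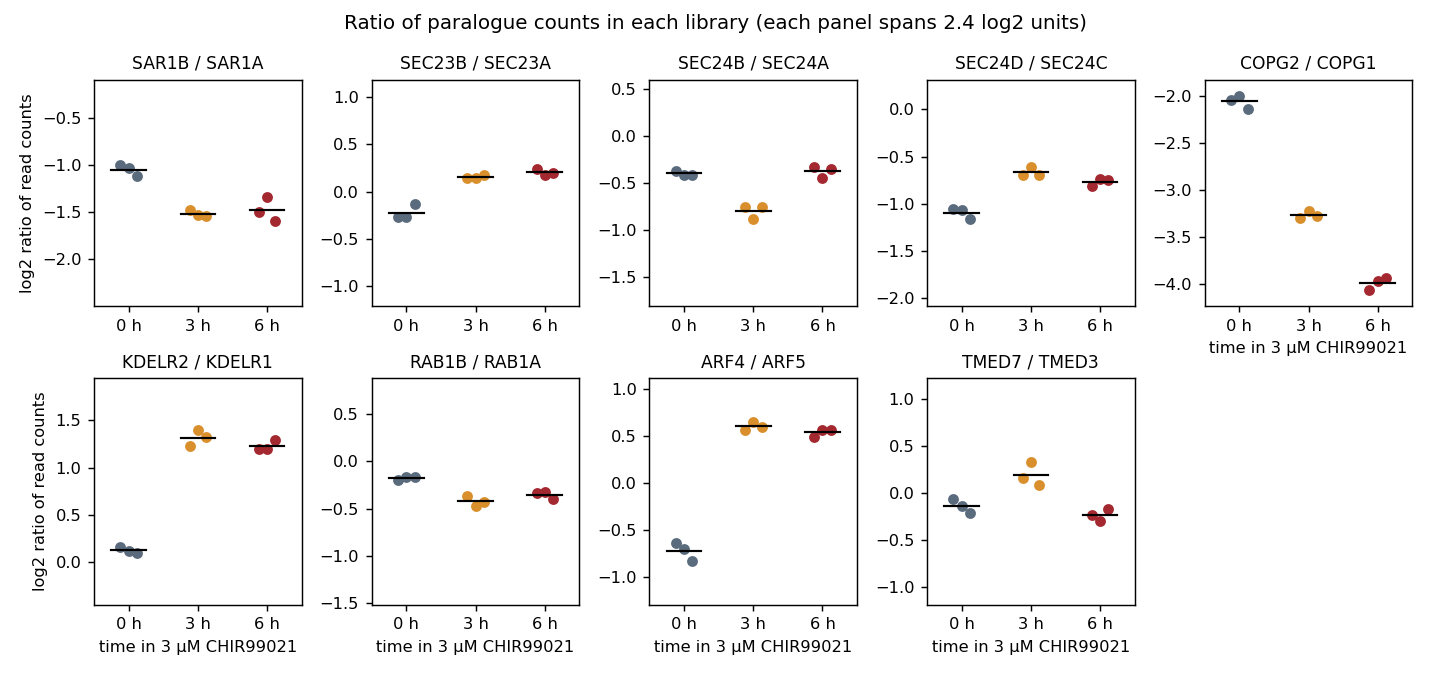
Log2 ratio of raw counts (vertical axes, each spanning the same range) for the 9 paralogue pairs that passed, in each library at 0 h, 3 h and 6 h in 3 µM CHIR99021; each point is 1 library and each line the mean of 3. COPG2 to COPG1 declines to a mean of -3.98 at 6 h, ARF4 to ARF5 passes from below to above 0 by 3 h, and SEC24B to SEC24A dips at 3 h alone.

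A wider list of 79 early secretory genes, of which 78 were tested, set the vesicle genes in their pathway. At 6 h, 46 were higher than at 0 h and 15 were lower, with a median of 0.23, beside 35.7% higher and 35% lower of all tested genes. At 3 h, 46 were higher and 16 lower, with a median of 0.22, beside 32.8% and 33.5% of all tested genes. Library size alone gave 25 higher and 27 lower at 6 h and 31 higher and 30 lower at 3 h, so the balance of this list rests on the scaling. With that scaling all called genes divided into 3656 higher and 7504 lower at 6 h and 3468 and 7451 at 3 h. Relative to all called genes the list thus leaned higher with either scaling. With TMM factors at 6 h, 16 of 24 COPII regulators and cargo adaptors were higher and 4 lower, 7 of 11 COPI regulators were higher and 1 lower, 9 of 12 SNAREs and SNARE regulators were higher and 1 lower, and 14 of 31 tethers and Golgi matrix genes were higher and 9 lower. The 3 strongest rises by p-value were GOSR2, ARFGAP3 and RINT1. GOSR2, a Golgi SNARE that pairs with STX5, averaged 65.4 ± 2.13 CPM at 6 h and 26.4 ± 1.08 CPM at 0 h (log2 fold change 1.31, edgeR adjusted p = 1.11e-10). ARFGAP3, which switches ARF off, averaged 109 ± 5.57 CPM at 6 h and 47.4 ± 0.386 CPM at 0 h (1.2, adjusted p = 1.16e-10). RINT1, of the ER tether complex for COPI vesicles, averaged 70.2 ± 2.65 CPM at 6 h and 32.8 ± 0.964 CPM at 0 h (1.1, adjusted p = 5.68e-10).

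Among the wider genes that fell, TRAPPC6B, of a tethering complex, averaged 20.4 ± 0.803 CPM at 6 h and 37.6 ± 1.87 CPM at 0 h (log2 fold change -0.88, edgeR adjusted p = 9.36e-09). MIA2, which helps load bulky cargo at ER exit sites, averaged 3.03 ± 0.179 CPM at 6 h and 6.73 ± 0.859 CPM at 0 h (-1.15, adjusted p = 3.85e-07). GOLGA2, the Golgi matrix protein GM130 to which USO1 binds, averaged 40.5 ± 2.51 CPM at 6 h and 56.7 ± 0.572 CPM at 0 h (-0.49, adjusted p = 1.28e-06). It thus moved opposite to USO1.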

How the data were processed

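RNA of 9 Ramos libraries was sequenced. The deposited table holds raw counts of reads for each Ensembl gene, as the authors made it. Per the submitters' processing notes, GSNAP and HTSeq 0.6.0 were used with build hg19, and limma 3.30.0 is also listed. The sources used here give neither annotation release nor strand setting, which leaves overlapping genes uncertain. The 5 summary entries were set aside, and 67.6% to 70.9% of reads lay in genes. Multimapping reads were counted apart, and annotated pseudogenes of 9 of the genes held at most 0.251% of the gene's reads.

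Counts were fitted in R 4.3.3 with edgeR 4.0.16 (filterByExpr with minimum count 10 and total 15, TMM factors, robust quasi-likelihood, 1 mean per time, 9 libraries, 6 residual degrees of freedom). Tests were two-sided, with Benjamini-Hochberg adjustment over 15847 genes and a threshold of 0.05. CPM uses TMM-scaled library sizes, and TPM uses exon lengths of GENCODE 29. The SE of a log2 fold change is its size over the square root of the F statistic. Replicates are separate samples per the labels. Paralogue ratios used a pseudocount of 0.5. Counting limits took 3 reads as the floor and cover counting error only. The procedure was tested on simulated data.

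The genes, lists and tests were chosen with earlier results of these data known. Library values are printed for the 2 members of each role with the largest 6 h change and the 1 with the smallest, for pairs whose ratio passed and for members that turned between 3 h and 6 h. The alternatives tried were leaving out each library, other scalings and filters, fitting the compared times by themselves, testing against a 1.2-fold minimum, a pseudocount of 5, limma-voom (limma 3.58.1) and DESeq2 1.42.0. Protein sequences were not used here.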

Additional observations from a re-analysis of the deposited data

How the results depend on the processing

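Of 102 calls of single genes over the 3 comparisons, 75 kept direction and threshold under every alternative and 97 whichever 1 library was left out. Except where the construction of an alternative is named, the cause was not tested. Upper-quartile factors gave -0.03 for COPA and -0.15 for ARF5 at 3 h, -0.09 for ARF5 and -0.13 for KDELR1 at 6 h, and 25 wider genes lower at 3 h. Library size alone gave -0.08 for COPA, -0.20 for ARF5 and -0.01 for RAB1B at 3 h, -0.06 for SEC24A, -0.04 for SEC24B, -0.18 for ARF5, -0.22 for KDELR1, -0.01 for STX5 and -0.02 for RAB1B at 6 h, and -0.01 for RAB1B at 6 h over 3 h. Among these values, those of ARF5 at 3 h and 6 h and of KDELR1 at 6 h passed, as lower. Library size alone called 4 vesicle and 30 wider genes lower at 3 h. At 6 h it called 3 vesicle genes lower, 25 wider genes higher and 27 lower, and 3656 of all genes higher. SEC24B had 0.01 at 3 h without a filter. With 1 CPM in 3 libraries ARF5 had -0.04 at 3 h and KDELR1 -0.03 at 6 h, and with the compared groups alone KDELR1 had -0.02. A minimum fold of 1.2, a stricter test by construction, ended 27 of the 102 calls. It called 1 vesicle gene lower, 28 wider genes higher and 8 lower, and 3453 of all genes higher at 3 h. It called 27 wider genes higher and 6 lower at 6 h. At 6 h over 3 h it called 9 vesicle genes higher and 1 lower, 7 wider genes higher and 4 lower, and 1136 of all genes higher and 1368 lower. Leaving out 1 library gave -0.10 to 0.05 for SEC24B and -0.05 to 0.09 for ARF5 at 3 h, -0.03 to 0.05 for KDELR1 at 6 h, and -0.01 to 0.05 for RAB1B and -0.04 to 0.01 for ARF4 at 6 h over 3 h. The ratio of SEC24B to SEC24A at 6 h minus 0 h ranged from -0.00 to 0.06. No paired analysis was made, because the replicate numbers differ at each time and do not show whether libraries of different times were matched.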

Other observations

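The tethering complexes in the wider list, picked out after their values were seen, divided in both directions. Of 8 subunits of the COG complex, which tethers vesicles within the Golgi, 2 were higher at 6 h than at 0 h, 3 were lower and 3 did not pass, with a median log2 fold change of 0.09, where 35.7% of all tested genes were higher and 35% lower. Of 12 TRAPP subunits, which activate RAB1, 5 were higher, 4 were lower and 3 did not pass, with a median of -0.06. Both splits lie near that of all tested genes, and whether these complexes differ from the coats was not tested.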
